A study of Mus musculus with 84 samples.

Results

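Slc17a7, Slc17a6, Neurod2, Neurod6, Tbr1, Emx1, Rspo2, Nrn1 and Nrgn are 9 genes of excitatory neurons of the basolateral amygdala and the cortex. They were chosen by name rather than by a cut on a measured value, but with earlier results of these data known. They make up 9 of the 43629 genes listed and 9 of the 16320 with enough counts to be tested. Poly(A) RNA was sequenced from the central nucleus of the amygdala of 84 heterogeneous stock Collaborative Cross mice, an outbred population from many founder strains. There were 43 females and 41 males, of a median age of 15 weeks when testing began. All had a free choice between water and 10% ethanol for 13 weeks, with ethanol available until death, and no group without ethanol was analysed here. Preference is the ethanol volume over the total volume drunk. Its mean over the weeks was 0.272 ± 0.17 in females and 0.21 ± 0.152 in males (SD, n = 43 and 41), with a range of 0.0262 to 0.759 over all 84 animals.

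The nucleus was cut by laser from stained frozen sections on both sides of each brain. Each animal gave 1 library. Total counts ran from 24118965 to 36924667 in females and from 24829435 to 42036566 in males. Up to 3 animals came from 1 family, and families are not given per animal, so the animals were not fully independent. Sample-sheet numbers formed 4 ascending runs of 18, 18, 17 and 31 animals, which were treated as possible batches.

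Markers of central amygdala neurons were read in the labelled tissue. All 15 of them passed the filter on low counts, and their summed level ran from 652 to 2277 RPKM (counts scaled to exon length and library total). All 10 choroid plexus genes and all 16 striatal genes looked up passed too, so passing does not identify the tissue. The median sum was 1111 RPKM for the 15 central amygdala markers and 1819 RPKM for 25 basolateral and cortical excitatory markers. The lists differ in length, so these sums do not show which kind of marker was higher. The somatostatin gene Sst, which also marks cortical interneurons, had a median of 585 RPKM. Medians of the other markers of the nucleus ran from 0.857 RPKM for Prlr to 265 RPKM for Penk. Among them, Wfs1 had 90.2 RPKM, Crh, which encodes corticotropin-releasing hormone, 5.24 RPKM and Prkcd, which encodes protein kinase C delta, 3.74 RPKM. The GABA synthesis gene Gad1 had a median of 64.2 RPKM and the GABA vesicle transporter gene Slc32a1 78.6 RPKM. Slc17a7, the transporter gene of cortical and basolateral excitatory neurons, had a median of 463 RPKM in the same libraries.

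Excitatory neurons load glutamate into synaptic vesicles with vesicular transporters, and which transporter a neuron makes follows its origin. Neurons of the cortex, hippocampus and basolateral amygdala, which arise from the pallium, mainly make VGLUT1 from Slc17a7, whereas neurons of the thalamus, hypothalamus and medial amygdala mainly make VGLUT2 from Slc17a6. The transcription factors Neurod2, Neurod6, Tbr1 and Emx1 act in the making of pallial excitatory neurons, while the neurons of the central nucleus are mostly inhibitory and arise from the subpallium.

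**Figure D1:**
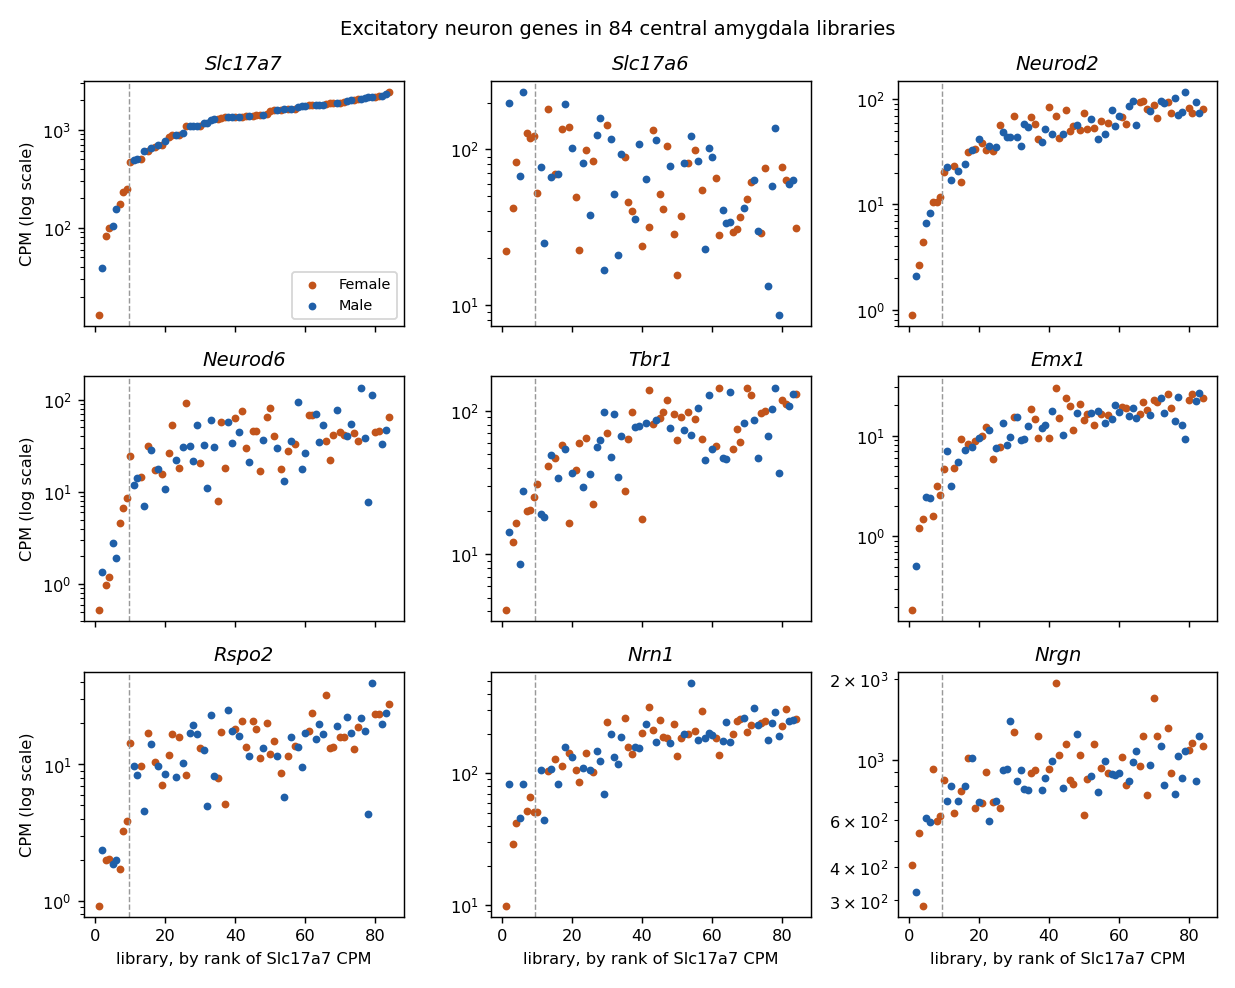
CPM (log axis) of each of the 9 genes in 84 libraries, 1 point per mouse, ordered by the Slc17a7 level; the dashed line marks the 9 libraries with less than 0.25 times the median of Slc17a7. Neurod2 and Emx1 climb with Slc17a7 over the whole order, Nrgn spans a 6.74-fold range, and Slc17a6 does not climb.

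The promoters of 4 of the genes are shown because the first 3 of them varied most closely together, whereas the last had a negative r with each of them. The table of promoters used here held 7 of the 9 genes, and none for Rspo2 and Nrn1. Each window is 300 bases, from 250 before to 50 after a transcription start, from RefSeq on build GRCm38.p6, the build of the counts. Capitals mark the motif CAGATG, a NeuroD-type E-box, read on both strands (reverse CATCTG).
Slc17a7 promoter at chr7:45163671-45163970 (plus strand): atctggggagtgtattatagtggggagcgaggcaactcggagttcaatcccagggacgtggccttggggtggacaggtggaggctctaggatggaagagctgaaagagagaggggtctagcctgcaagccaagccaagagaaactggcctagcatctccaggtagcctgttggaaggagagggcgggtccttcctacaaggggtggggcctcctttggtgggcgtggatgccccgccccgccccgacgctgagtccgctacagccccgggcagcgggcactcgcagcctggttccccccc
Neurod2 promoter at chr11:98329596-98329895 (minus strand): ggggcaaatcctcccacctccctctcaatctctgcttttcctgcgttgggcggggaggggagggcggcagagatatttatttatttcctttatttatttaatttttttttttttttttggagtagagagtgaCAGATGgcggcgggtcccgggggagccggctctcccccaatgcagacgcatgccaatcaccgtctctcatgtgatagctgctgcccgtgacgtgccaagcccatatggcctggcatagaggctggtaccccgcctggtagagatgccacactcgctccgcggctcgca
Emx1 promoter at chr6:85187681-85187980 (plus strand): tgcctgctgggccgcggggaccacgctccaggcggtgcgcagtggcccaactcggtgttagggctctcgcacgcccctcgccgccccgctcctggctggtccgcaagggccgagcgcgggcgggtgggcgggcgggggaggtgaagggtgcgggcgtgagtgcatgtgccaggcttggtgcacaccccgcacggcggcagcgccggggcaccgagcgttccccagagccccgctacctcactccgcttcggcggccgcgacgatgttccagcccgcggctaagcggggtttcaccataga
Slc17a6 promoter at chr7:51621580-51621879 (plus strand): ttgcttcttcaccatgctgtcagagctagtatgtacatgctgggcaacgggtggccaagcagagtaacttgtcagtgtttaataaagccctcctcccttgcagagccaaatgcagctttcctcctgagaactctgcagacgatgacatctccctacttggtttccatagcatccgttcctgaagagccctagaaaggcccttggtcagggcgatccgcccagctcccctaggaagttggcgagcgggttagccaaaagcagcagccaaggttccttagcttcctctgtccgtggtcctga
The motif CAGATG occurred in 3 of the 8 promoters of members, those of Neurod2 and Nrgn and the second promoter of Slc17a6, and in 17.2% of all 32851 promoters of this length. None of the 8 held the E-box CAGCTG, which reads the same on both strands and was present in 16.3% of all promoters. The T-box half-site AGGTGT (reverse ACACCT) was in 2 of the 8, of Neurod6 and the second Slc17a6 promoter, and in 13.7% of all. TAATTA, a homeodomain core that reads the same on both strands, was in 2 of the 8, with 2 copies in Tbr1 and 1 in the second Slc17a6 promoter, and in 5.29% of all. GC content was 63.7% for Slc17a7, 55.3% for Neurod2, 74% for Emx1 and 53.7% for the Slc17a6 window printed, against a median of 52.7% over all promoters.

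How much each gene was expressed, and how much it differed between animals, was described first. Levels below are CPM, counts scaled to the TMM-adjusted library total, and levels of different genes are compared only as RPKM. In bulk tissue, fewer cells of a type and less RNA per cell cannot be told apart. Because CPM are shares of a library, a larger share of one tissue lowers the shares of all others.

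Slc17a7 (ENSMUSG00000070570, chromosome 7, 45163921 to 45176138, plus strand) ran from 13.0 to 2404 CPM in females, with a median of 1362, and from 39.2 to 2330 CPM in males, with a median of 1352. The sexes overlapped over nearly the whole range. The highest library had 185.1 times the level of the lowest, whereas the upper quartile was 2.07 times the lower quartile. In 9 libraries, 6 of females and 3 of males, Slc17a7 was under 0.25 times the overall median, at 13.0 to 249 CPM, and the other 75 began at 471 CPM. The lowest was Female replicate 19, with 424 counts of Slc17a7 among 31819487. The 9 libraries came from all 4 runs, with 1, 2, 3 and 3 in runs 1 to 4. Their total counts were 24829435 to 35918453, within the range of the rest, and over all 84 libraries Slc17a7 was not detectably related to the total (Pearson's r = 0.12, permutation p = 0.262; Spearman's rho = 0.07, p = 0.525).

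Slc17a6 (ENSMUSG00000030500, chromosome 7, 51621830 to 51671125, plus strand), which encodes the other vesicular glutamate transporter measured, ran from 15.6 to 183.1 CPM in females (median 54.9) and from 8.59 to 233.8 CPM in males (median 67.1). Its extremes were both in males: Male replicate 18 had 8.59 CPM and Male replicate 19 had 233.8 CPM. Per length, Slc17a7 exceeded Slc17a6 in all but 3 libraries. The ratio of their RPKM ran from 0.867 to 147 in females (median 39.7) and from 0.291 to 367 in males (median 28.5). Both the highest and the lowest ratio therefore fell in males, and the 3 libraries with a ratio under 1 were 1 female and 2 males.

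The transcription factor genes had lower RPKM than Slc17a7 and also varied widely. Neurod2 (ENSMUSG00000038255, chromosome 11, 98325415 to 98329648, minus strand), which encodes a basic helix-loop-helix factor of neuronal differentiation, had 0.889 to 95.4 CPM in females (median 57.1) and 2.11 to 117 CPM in males (median 49.2). Neurod6 (ENSMUSG00000037984, chromosome 6, 55677818 to 55681263, minus strand), a factor of the same family, had 0.521 to 91.1 CPM in females (median 32.8) and 1.34 to 135.5 CPM in males (median 31.7). Its 260-fold range was the widest of the 9 genes, and its lowest library, Female replicate 19, held 17 counts. Tbr1 (ENSMUSG00000035033, chromosome 2, 61802930 to 61814114, plus strand), which encodes a T-box factor of cortical projection neurons, had 4.08 to 145.1 CPM in females (median 63.4) and 8.61 to 144.9 CPM in males (median 62.4). Emx1 (ENSMUSG00000033726, chromosome 6, 85187438 to 85204462, plus strand), which encodes a homeobox factor of the dorsal telencephalon, had 0.184 to 30.0 CPM in females (median 14.9) and 0.508 to 26.5 CPM in males (median 12.6). Female replicate 19 was the lowest of all 84 libraries for each of these 4 factors, with 6 counts of Emx1. The sexes overlapped for every factor.

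Among the remaining members, Rspo2 (ENSMUSG00000051920, chromosome 15, 43020811 to 43170818, minus strand) encodes a secreted enhancer of Wnt signalling and marks a class of basolateral neurons in the mouse. Rspo2 had 0.919 to 32.3 CPM in females (median 13.5) and 1.85 to 39.7 CPM in males (median 14.1). Nrn1 (ENSMUSG00000039114, chromosome 13, 36725625 to 36734477, minus strand) encodes neuritin, a membrane-anchored protein of neurite growth that neuronal activity can induce. It had 9.96 to 318 CPM in females (median 186.9) and 44.5 to 485 CPM in males (median 174.5), with the highest value in Male replicate 39. Nrgn (ENSMUSG00000053310, chromosome 9, 37544492 to 37552904, minus strand) encodes neurogranin, a calmodulin-binding protein of dendritic spines. It had 287 to 1934 CPM in females (median 899) and 323 to 1396 CPM in males (median 855). Its highest library had 6.74 times the level of the lowest, the narrowest range of the 9. None of the 9 genes overlapped another listed gene.

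Per length, Nrgn stood highest with a median of 607 RPKM, followed by Slc17a7 with 463 RPKM. Their ranges between quartiles overlapped, at 521 to 706 RPKM for Nrgn and 294 to 609 RPKM for Slc17a7. Nrn1 followed with a median of 101 RPKM and quartiles of 63.9 and 133.2 RPKM, apart from the genes on either side. Neurod2 at 17.2, Slc17a6 at 14.8, Neurod6 at 14.8 and Tbr1 at 11.6 RPKM had quartile ranges that overlapped. Whether they differ within libraries was not tested. Emx1 at 6.26 RPKM and Rspo2 at 4.11 RPKM were lowest, with quartile ranges that overlapped each other as well.

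The spread of the 9 genes was set beside that of all genes tested. The SD of log2 CPM over 84 animals was 1.54 for Neurod6, 1.38 for Slc17a7, 1.29 for Neurod2, 1.25 for Emx1, 1.06 for Rspo2, 1.03 for Tbr1, 0.98 for Slc17a6 and 0.89 for Nrn1, against a median SD of 0.32 over all genes. For Neurod6, 98% of all genes had a smaller SD, and for Nrn1 91.2% had. Nrgn, with an SD of 0.43, exceeded 65.5% of all genes. All but Nrgn thus lay in the upper tail of variability.

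The next comparison asked whether the 9 genes differed between animals together or separately. Without Slc17a6, all 28 pairs of the other 8 genes correlated positively over the 84 animals. Slc17a6 correlated negatively or near 0 with all of them. All 36 pairs were computed on log2 CPM with a prior count of 2, with 100000 permutations, whose smallest possible p is 1e-05. Genes measured in the same libraries share their depth and their scaling.

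Slc17a7 and Neurod2 varied most closely, with r = 0.97 and rho = 0.89 (n = 84, 2-sided permutation p = 1e-05 for both). This was also the highest r with Slc17a7 of all 16319 other genes. Emx1 followed with r = 0.95 and rho = 0.84, the fifth highest of all genes (p = 1e-05 for both). With the 2 most extreme Slc17a7 levels omitted, r was 0.96 for Neurod2 and 0.93 for Emx1. Within the 4 runs, r of Slc17a7 with Neurod2 was 0.97, 0.98, 0.99 and 0.94, and with Emx1 0.94, 0.97, 0.99 and 0.90.

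The other 5 followed Slc17a7 less tightly. Pearson's r with Slc17a7 was 0.86 for Nrn1, 0.85 for Neurod6, 0.83 for Rspo2, 0.81 for Tbr1 and 0.71 for Nrgn. Spearman's rho was 0.82 for Nrn1, 0.71 for Tbr1, 0.64 for Rspo2, 0.62 for Neurod6 and 0.58 for Nrgn. The permutation p was 1e-05 for each of these except the rho of Nrgn, with 2e-05. Among all genes, 97.5% had a lower r with Slc17a7 than Nrgn had, and 99.3% or more had a lower one than each of the other 6 positive members. In each of the 4 runs all 28 pairs without Slc17a6 had a positive r, between 0.30 and 0.99. Over the 14 animals of run 3 that remain without the libraries with little Slc17a7, described next, 27 of the 28 were positive, with r = -0.07 for Neurod6 and Tbr1 and 0.01 for Neurod2 and Tbr1.

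Values of r were lower without the libraries with little Slc17a7. These were picked by the level of 1 of the correlated genes, and such a cut narrows its range and by itself lowers r. The fall therefore does not show what these libraries contribute. Over the 28 pairs the median r was 0.81 with all 84 libraries and 0.48 over the 75 libraries without those 9. Slc17a7 still had r = 0.90 with Neurod2, 0.82 with Emx1 and 0.77 with Nrn1 over the 75 libraries. It had 0.63 with Tbr1, 0.49 with Neurod6, 0.43 with Rspo2 and 0.42 with Nrgn. The pair least correlated over the 75 was Neurod6 and Nrn1, with r = 0.16, against 0.65 with all 84. The choice of these 9 libraries was made after their values were seen.

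**Figure D2:**
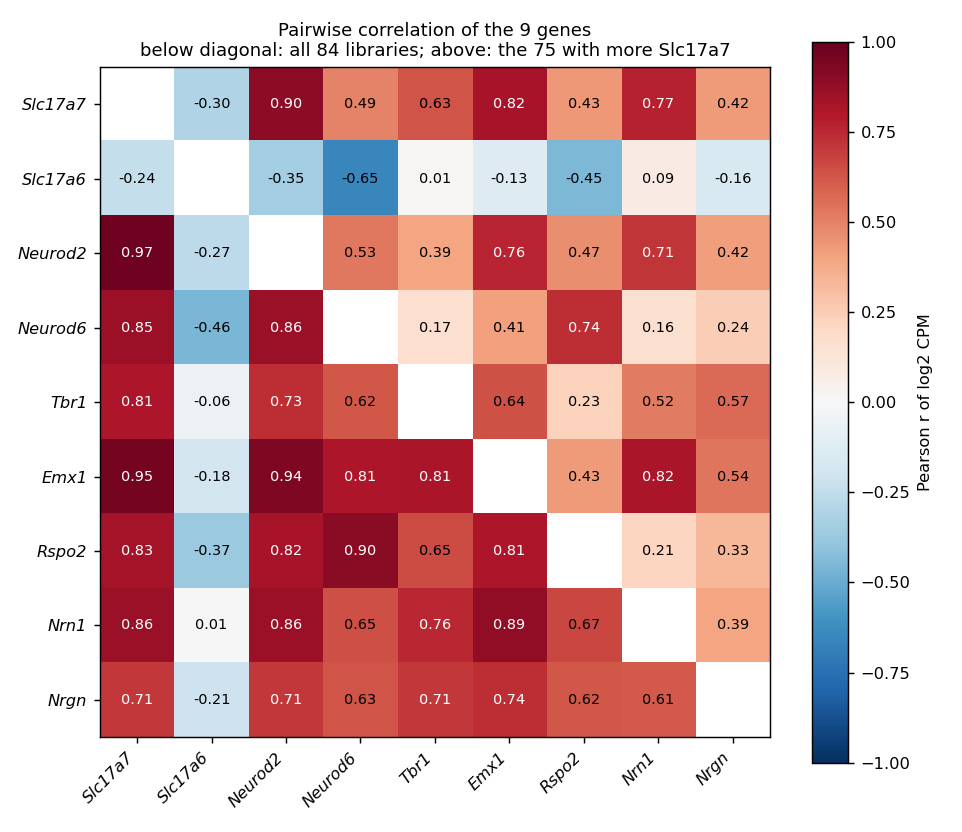
Pearson's r of log2 CPM for the 36 pairs of genes, over all 84 libraries below the diagonal and over the 75 libraries above it that remain without the 9 with little Slc17a7. Below the diagonal, every pair without Slc17a6 lies between 0.61 and 0.97, whereas above it the values spread from 0.16 to 0.90.

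To set these pairs against the rest of the transcriptome, every other gene was fitted on the log2 CPM of Slc17a7 with sex as a term (limma-trend, Benjamini-Hochberg adjusted p under 0.05). Of the other 8 members, 7 passed with a positive slope and 0 with a negative one, where 24.3% of all genes passed as positive and 23.6% as negative. Neurod6 changed by 0.96 ± 0.06 log2 per log2 unit of Slc17a7 (± SE), Neurod2 by 0.92 ± 0.02 and Emx1 by 0.87 ± 0.03. Rspo2 (0.64 ± 0.05), Tbr1 (0.61 ± 0.05), Nrn1 (0.56 ± 0.04) and Nrgn (0.23 ± 0.02) had lower slopes. The median slope was 0.63 over the 8 members and -0.00 over all genes. Among the 7, the largest limma adjusted p was 4.07e-13, of Nrgn. Over all 84 libraries Neurod6, Neurod2 and Emx1 thus changed nearly in proportion to Slc17a7, while Nrgn changed by much less than in proportion. Without the 9 libraries with little Slc17a7, slopes were 0.96 ± 0.05 for Neurod2, 0.90 ± 0.07 for Emx1 and 0.82 ± 0.11 for Tbr1. Nrn1 had 0.77 ± 0.07, Neurod6 0.75 ± 0.15, Rspo2 0.46 ± 0.11 and Nrgn 0.23 ± 0.06 there. The place of Neurod6 above Tbr1 and Nrn1 was thus not kept.

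Slc17a6 missed the threshold in this fit, with a slope of -0.17 ± 0.08 on Slc17a7 (limma adjusted p = 0.0507). It passed as negative in males alone (-0.33 ± 0.13, adjusted p = 0.0358) and without the 9 libraries with little Slc17a7 (-0.47 ± 0.17, adjusted p = 0.0295). It also passed without the 2 libraries of extreme Slc17a7 (-0.29 ± 0.09, adjusted p = 0.00759) and with DESeq2 size factors (-0.18 ± 0.08, adjusted p = 0.0485). It did not pass in females alone (-0.07 ± 0.09, adjusted p = 0.558), with run as a covariate (adjusted p = 0.0848) or with a prior count of 0.5 (adjusted p = 0.051). Whether the sexes differ in this slope was not tested. Over all 84 animals r was -0.24 (permutation p = 0.0294) and rho -0.35 (p = 0.00114), and r was -0.32 with the 2 extreme animals omitted. Within runs, r was -0.28, -0.58, 0.30 and -0.35, so the sign differed in run 3. Without the libraries with little Slc17a7, run 3 kept 14 animals and had r = -0.27.

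**Figure D3:**
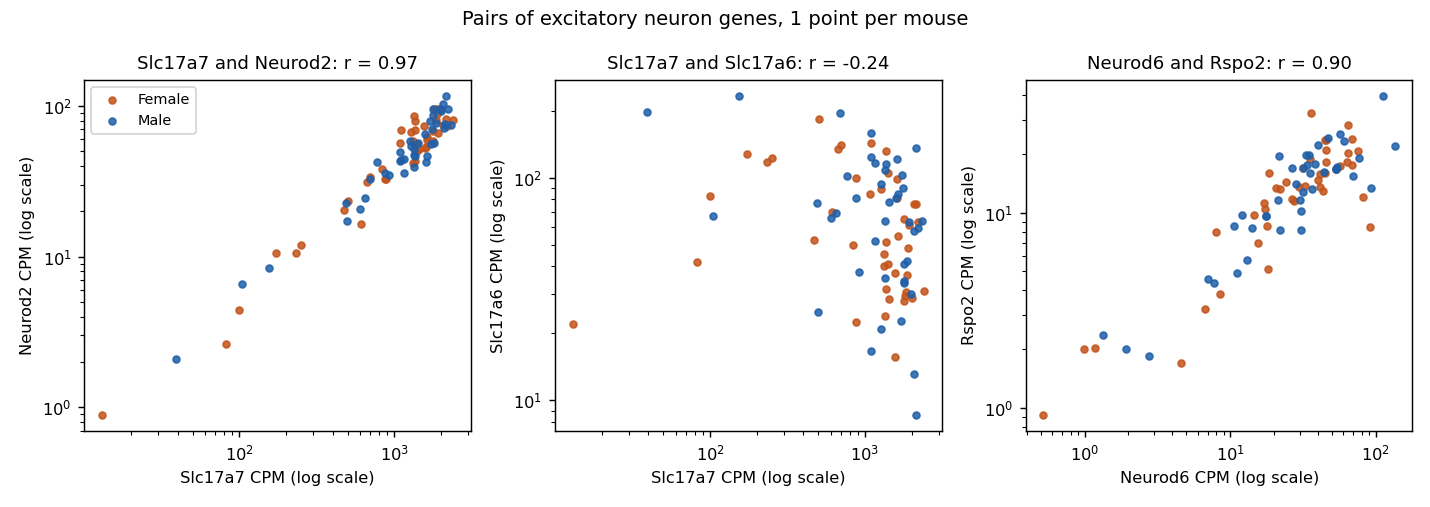
CPM (log axes) of Slc17a7 and Neurod2, of Slc17a7 and Slc17a6, and of Neurod6 and Rspo2, 1 point per mouse, with r on log2 CPM. Neurod2 follows Slc17a7 closely in both sexes (r = 0.97), Rspo2 follows Neurod6 (r = 0.90), and Slc17a6 scatters with r = -0.24.

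Fitted in turn on the log2 CPM of Slc17a6, 0 of the other 8 members passed as positive and 2 as negative, where 9.95% of all genes passed as positive and 10.5% as negative. Neurod6 fell by 0.72 ± 0.15 log2 per log2 unit of Slc17a6 (limma adjusted p = 0.000192), and Rspo2 fell by 0.41 ± 0.11 (adjusted p = 0.00379). The r of Slc17a6 with Neurod6 was -0.46 (permutation p = 1e-05) and rho -0.63 (p = 1e-05). Within runs r was -0.52, -0.70, 0.10 and -0.61, and in run 3 without the libraries with little Slc17a7 it was -0.72. Without the 2 animals farthest from the median of Slc17a6, r was -0.41. With Tbr1 r was -0.06 (permutation p = 0.588; rho = -0.12, p = 0.286), and with Nrn1 0.01 (p = 0.953; rho = -0.10, p = 0.352). Within runs the r of Slc17a6 with Tbr1 was 0.14, -0.20, 0.57 and -0.37. Every pair with Slc17a6 had a positive r in run 3, from 0.10 to 0.57. Without the libraries with little Slc17a7, 2 of these 8 pairs stayed positive in run 3, and the pair with Tbr1 had r = 0.56. In females alone neither Neurod6 nor Rspo2 passed (adjusted p = 0.353 and 0.457), and in males alone both did (0.000108 and 0.00618). Neurod2, with -0.36 ± 0.14 (adjusted p = 0.0556) over all animals, passed in males alone (adjusted p = 0.0385) and without the libraries with little Slc17a7 (adjusted p = 0.0201).

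Neurod6 and Rspo2 had a higher r with each other than either had with Slc17a7. Over 84 animals this pair had r = 0.90 and rho = 0.80 (permutation p = 1e-05 for both). Its r was 0.87 without the 2 farthest animals and 0.88, 0.87, 0.98 and 0.89 within the runs. Both also had the lowest r with Slc17a6. A fit of every gene on Neurod6 with Slc17a7 and sex as further terms was therefore added after these values were seen. Because these values prompted the fit, its slopes of Rspo2 and Slc17a6 are not separate support for them. In this fit 1 of the other 7 members passed as positive, where 8.86% of all genes did, and 2 as negative, where 6.94% did. Rspo2 had a slope of 0.49 ± 0.06 (limma adjusted p = 9.08e-09), Slc17a6 of -0.60 ± 0.11 (8.84e-05) and Nrn1 of -0.20 ± 0.06 (0.0116). Nrn1 passed in neither sex alone (adjusted p = 0.123 in females and 0.126 in males), and Slc17a6 did not in females (adjusted p = 0.179). Tbr1, with -0.19 ± 0.08 (adjusted p = 0.101), Neurod2, with 0.08 ± 0.04 (0.137), Nrgn, with 0.02 ± 0.04 (0.747), and Emx1, with -0.02 ± 0.05 (0.858), did not pass.

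The genes most like Slc17a7 over the 84 animals, apart from members, were Sv2b (r = 0.96), Rtn4rl2 (0.96), Rtn4r (0.96), Enc1 (0.94), Nptxr (0.93), Lingo1 (0.92), Sprn (0.92), Nptx1 (0.91), Nov (0.90) and Slc30a3 (0.90). Sv2b encodes a synaptic vesicle protein, Rtn4r and Rtn4rl2 encode Nogo receptors, Nptx1 and Nptxr a neuronal pentraxin and its receptor, and Slc30a3 the transporter that loads zinc into glutamatergic vesicles. The lowest r belonged to Bcat1 (-0.84), Gpld1 (-0.83), Serpine2 (-0.82), Gltp (-0.81) and Slc25a1 (-0.81). Genes most similar to Slc17a6 included Mab21l1 (0.88), Barhl2 (0.83), A230065H16Rik (0.82) and Arhgap24 (0.79), of which Barhl2 encodes a homeobox factor. The 5th to 95th percentile of r over all genes was -0.53 to 0.62 for Slc17a7 and -0.35 to 0.39 for Slc17a6.

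Lists of further genes were read next, chosen with earlier results of these data known. Of all genes, 24.3% passed as positive on Slc17a7 and 23.6% as negative. Of 18 pallial transcription factors tested, 16 passed as positive on Slc17a7 and 2 as negative, with a median slope of 0.25. Zbtb18 rose by 0.45 ± 0.02, Mef2c by 0.40 ± 0.04 and Bcl11a by 0.10 ± 0.03, and Cux1 fell by 0.10 ± 0.02. Of 25 basolateral and cortical excitatory markers, 20 passed as positive and 0 as negative, with a median of 0.30. Sv2b rose by 0.55 ± 0.02, the kinase gene Camk2a by 0.35 ± 0.02, Ptk2b by 0.32 ± 0.03 and Lypd1 by 0.23 ± 0.05. In the calmodulin system, to which neurogranin belongs, 13 of 17 passed as positive and 0 as negative, with slopes of 0.10 ± 0.01 for Calm3 and 0.08 ± 0.02 for Calm2. Of 4 genes of glutamate and zinc transport, 2 passed in each direction. Slc30a3 rose by 0.83 ± 0.04 and the glutamate uptake gene Slc1a1 by 0.09 ± 0.01, while Slc1a6 fell by 0.10 ± 0.03 and Slc17a8, which encodes VGLUT3, by 0.26 ± 0.07. Of 11 genes of R-spondin and Wnt receptor signalling, 3 passed as positive and 2 as negative, near the shares of all genes. The R-spondin receptor gene Lgr4 had 0.07 ± 0.02. All 20 immediate early genes, which neuronal activity induces, passed as positive with a median slope of 0.30, including Homer1 (0.33 ± 0.04), Arc (0.33 ± 0.06), Junb (0.26 ± 0.04) and Egr1 (0.23 ± 0.05).

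Apart from cortical interneurons, the lists of other neurons, glia and vessels held more genes that passed as negative on Slc17a7 than as positive, where 23.6% of all genes passed as negative and 24.3% as positive. All 12 genes of myelinating oligodendrocytes passed as negative, with a median slope of -0.46, and Mbp fell by 0.50 ± 0.05. Their summed level ran from 150.0 to 3640 RPKM over the libraries. Of 15 inhibitory neuron genes 13 passed as negative and 0 as positive (Gad1 fell by 0.20 ± 0.02, Slc32a1 by 0.31 ± 0.03), and their sum ran from 242 to 680 RPKM. Of 15 central amygdala markers 8 passed as negative and 2 as positive; Penk fell by 0.28 ± 0.07 and Sst had 0.00 ± 0.02. Striatal medium spiny neuron genes had 10 of 16 negative and 0 positive, with sums of 176.6 to 2645 RPKM. Of the 16 genes of thalamic, hypothalamic and medial amygdala neurons, 13 passed as negative and 1 as positive on Slc17a7, with sums of 21.7 to 3311 RPKM. On Slc17a6, 12 of those 16 passed as positive and 0 as negative, with a median slope of 0.59. Of all genes, 9.95% passed as positive on Slc17a6 and 10.5% as negative. The negative counts on Slc17a7 were 7 of 11 for microglia, 8 of 10 for endothelial and mural cells and 4 of 7 for nuclear-retained long RNAs, each with 0 positive. Astrocytes had 5 of 10 negative and 1 positive, and cortical interneurons 3 of 10 negative and 4 positive. The part of these cells in the correlations of the 9 genes was not tested.

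Choroid plexus and ependymal genes, markers of the ventricle wall, did not follow Slc17a7, with 0 of 10 passing and 1 of 12 positive. On Neurod6 beside Slc17a7, 7 of 10 choroid plexus genes and 11 of 12 genes of the ependymal motile cilium passed as positive and 0 as negative. Of all genes, 8.86% passed as positive and 6.94% as negative there. Ttr, the transthyretin gene of the choroid plexus, had a slope of 2.25 ± 0.69 (limma adjusted p = 0.0173) and Foxj1, a factor of motile cilia, 0.59 ± 0.20 (0.0279). Of the thalamic, hypothalamic and medial amygdala genes, 7 of 16 passed as negative and 1 as positive in that fit, with Zic1 at -0.32 ± 0.08. The summed level of the choroid plexus list ran from 2.66 to 19655 RPKM and that of the ependymal list from 6.14 to 176.2 RPKM. Their part in the pairing of Neurod6 with Rspo2 was not tested.

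**Figure D4:**
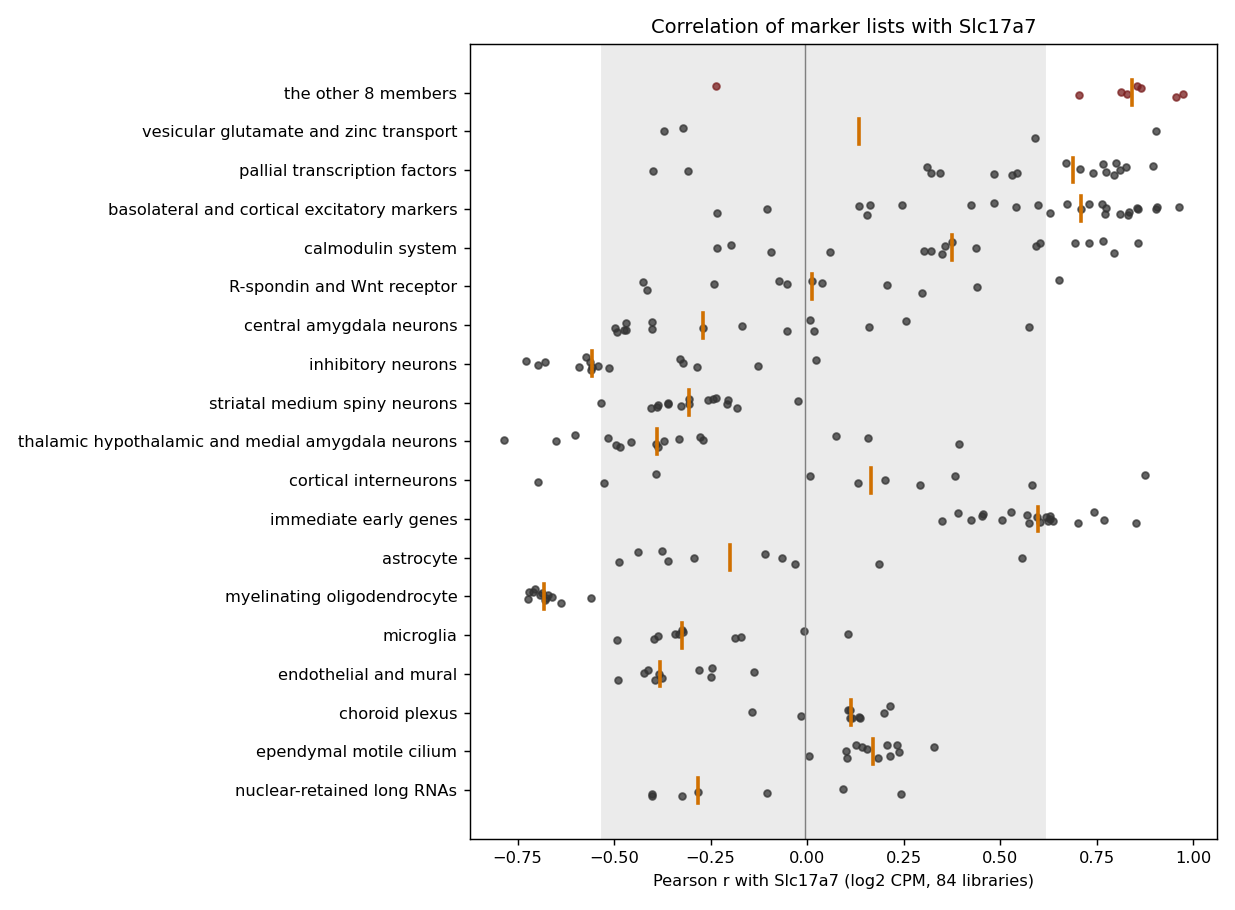
Pearson's r with Slc17a7 over 84 libraries for the other 8 genes and for the genes of 18 lists, 1 point per gene, with an orange bar at the median of each list; grey spans the 5th to 95th percentile of all genes and the grey line is their median. The medians of pallial, excitatory and immediate early genes lie to the right, those of oligodendrocyte and inhibitory genes to the left, and Slc17a6 is the 1 member on the left at -0.24.

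The study asked how expression relates to ethanol preference in week 1, in week 13 and over all weeks. None of the 9 genes passed in any of the 9 fits on preference. Over the quartiles of mean preference, from lowest to highest (21 animals each), the median of Slc17a7 was 1261, 1277, 1439 and 1560 CPM. That of Neurod2 was 46.3, 49.2, 55.6 and 68.1 CPM. Emx1 had 9.48, 12.0, 16.9 and 14.3 CPM, Neurod6 30.6, 30.0, 41.5 and 32.8 CPM, and Tbr1 57.5, 53.8, 94.4 and 67.0 CPM. The medians of Slc17a7 and Neurod2 were thus ordered by preference, and those of the other 3 were not. For Rspo2 the medians were 12.7, 14.3, 16.7 and 13.3 CPM. Nrn1 had medians of 174.04, 148.3, 194.8 and 185.3 CPM, Nrgn of 832, 847, 916 and 887 CPM, and Slc17a6 of 76.5, 49.7, 61.5 and 69.9 CPM. The highest of these medians lay in the third quartile for 6 of the 9 genes. The ratio of Slc17a7 to Slc17a6 RPKM had medians of 20.1, 28.5, 42.7 and 39.7, with quartiles of 15.1 and 57.3 in the animals that preferred ethanol most and of 7.28 and 41.3 in those that preferred it least.

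Mean preference was fitted over the 84 animals by edgeR's quasi-likelihood test, adjusting for sex. Log2 slopes per 0.5 of preference were 0.62 ± 0.41 for Neurod6, 0.37 ± 0.36 for Slc17a7, 0.35 ± 0.35 for Neurod2, 0.31 ± 0.27 for Nrn1 and 0.29 ± 0.35 for Emx1 (± SE, n = 84). Nrgn had 0.10 ± 0.15, Tbr1 0.08 ± 0.34, Slc17a6 -0.08 ± 0.31 and Rspo2 -0.15 ± 0.31. No slope was larger than 1.5 times its SE. Of the 9 members 0 passed and 0 had an unadjusted p under 0.05, where 0% of all genes passed and 643 of 16320 had an unadjusted p under 0.05. The edgeR adjusted p was 1.0 for all 9. By DESeq2 and by limma-voom 0 members passed as well. For Slc17a7 the 95% interval of the slope was -0.34 to 1.08. A doubling per 0.5 rise in preference lay within it and was thus not excluded. The interval of Nrgn was -0.19 to 0.39.

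The median slope of the 9 was 0.29, against -0.00 over all genes, and 7 of the 9 were positive, where 49.2% of all genes were. Because 8 of the 9 genes vary together, their signs are not separate observations. Without the 9 libraries with little Slc17a7 the median fell to 0.07. Within the 4 runs it was 0.23, 0.89, 0.82 and -0.24, with 7, 7, 8 and 2 of the 9 positive, so its direction did not hold in run 4, the largest. In run 2 the slope of Neurod6 was 2.19 ± 0.83 (edgeR adjusted p = 0.315), and in run 4 it was -0.67 ± 0.60 (adjusted p = 1.0).

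**Figure D5:**
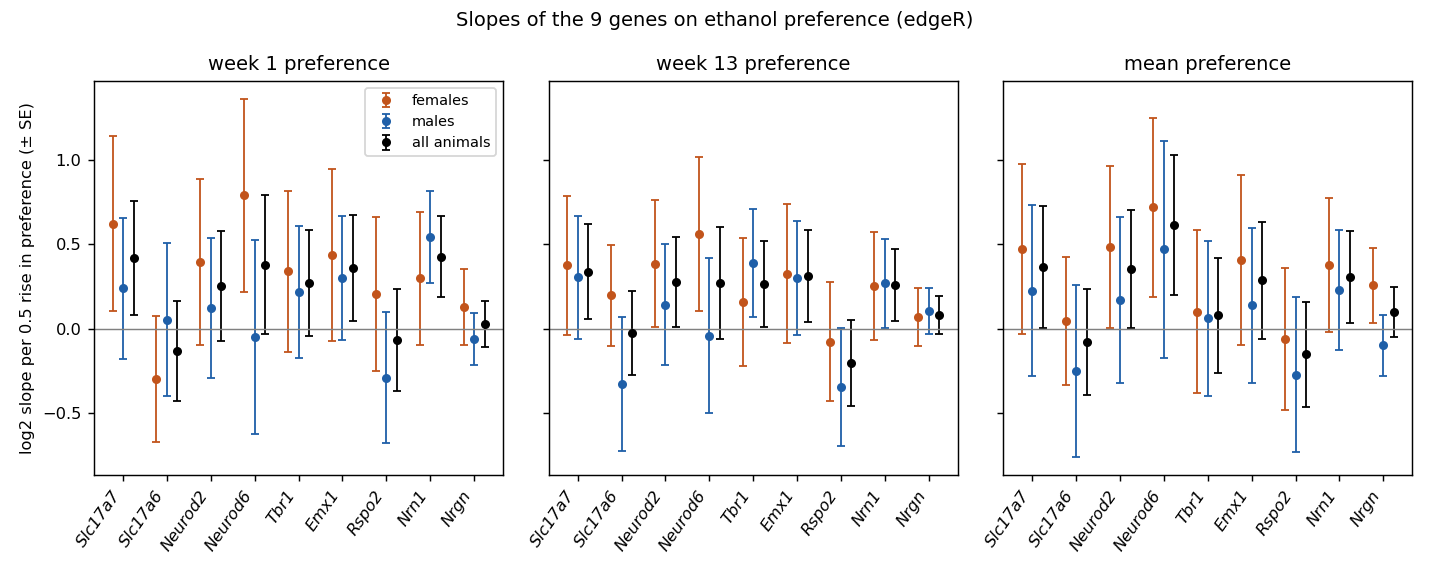
Log2 slopes of the 9 genes per 0.5 rise in preference in week 1, in week 13 and as the mean of all weeks, with bars of 1 SE, for females (n = 43), males (n = 41) and all animals (n = 84, adjusted for sex). No slope passed the threshold, and for mean preference over all animals the slopes range from -0.15 for Rspo2 to 0.62 for Neurod6.

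In each sex alone, mean preference called 0 of the 9 genes and 0% of all genes. In females the slopes ran from -0.06 ± 0.42 for Rspo2 to 0.72 ± 0.53 for Neurod6, and Slc17a7 had 0.47 ± 0.51. In males they ran from -0.27 ± 0.46 for Rspo2 to 0.47 ± 0.64 for Neurod6, and Slc17a7 had 0.23 ± 0.51. At an unadjusted p under 0.05 there were 0 members in either sex, beside 1135 genes in females and 270 in males. The term for a difference of slope between females and males called 0 of the 9 and 0% of all genes. Its estimates, female minus male, were all positive, from 0.05 ± 0.69 for Tbr1 to 0.36 ± 0.30 for Nrgn, and that of Nrgn was the 1 estimate larger than its SE. Without the 2 animals of extreme preference 4 of the 9 were positive and their median was -0.00, against 0.26 with all animals. The shared direction was thus not kept without those 2 animals, and the reason was not tested.

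Week 1 preference called 0 of the 9 genes in all animals, where 0.0306% of all genes passed, 0 in females (0% of all genes) and 0 in males (0.0368%). Nrn1 came nearest, with 0.54 ± 0.27 in males (unadjusted p = 0.0525, edgeR adjusted p = 0.953), 0.30 ± 0.39 in females and 0.43 ± 0.24 in all animals (unadjusted p = 0.079). Slc17a7 had 0.42 ± 0.34 in all animals. Week 13 preference called 0 of the 9 in all animals (0% of all genes), 0 in females (0.0368%) and 0 in males (0%). Slc17a7 had 0.34 ± 0.28, Emx1 0.31 ± 0.27, Neurod2 0.28 ± 0.27 and Rspo2 -0.20 ± 0.25 in all animals. Neurod6 had 0.56 ± 0.45 in females and -0.04 ± 0.46 in males. In all 9 preference fits 0 members had an unadjusted p under 0.05 in edgeR with the main settings. For week 13 in all animals, 1 member did without the libraries with little Slc17a7 and 2 did by limma-voom. For mean preference, 1 did by limma-voom in females and 1 by edgeR within run 2. None of these passed after adjustment.

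Females and males were compared directly. Of the 9 genes 0 passed, where 0.0919% of all genes did. The log2 difference, female minus male, was -0.20 ± 0.20 for Slc17a6, -0.10 ± 0.22 for Slc17a7, 0.12 ± 0.21 for Emx1 and 0.10 ± 0.09 for Nrgn (edgeR adjusted p of 0.986 or more). The other 5 lay between -0.05 and 0.08. The 95% interval of the difference in Slc17a7 was -0.53 to 0.34, and that in Nrgn -0.08 to 0.28.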

How the data were processed

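RNA of the central amygdala of 84 mice was analysed. The authors deposited raw read counts for each gene, per the labels. The submitters' processing notes name FastQC, STAR, featureCounts 1.6.0 of Subread, and DESeq2, and build GRCm38. No source used here gives the annotation release or the strand setting. A further 8 columns, 3 of them undetermined reads, were not used.

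Sex, weekly preference and intake came from the labels. The sex labels were checked against Xist and Ddx3y, and no library went against its label. No columns were identical. Replicate numbers follow the order of listing and pair nothing.

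Genes were kept by filterByExpr (minimum count 10, minimum total 15). Counts were scaled by TMM and fitted with the robust quasi-likelihood model of edgeR 4.0.16 in R 4.3.3, with Benjamini-Hochberg adjustment over all 16320 genes and a threshold of 0.05. DESeq2 1.42.0 and the limma-voom method of limma 3.58.1 were alternatives. Fits on the level of a gene used limma-trend on log2 CPM (prior count 2) with sex. The fitting procedures were tried on simulated data, and the outcome is not given here. That trial does not show how they perform for genes as variable and as closely correlated as these. Nor does it cover every fit reported. Intervals are 95%, the estimate ± 1.96 SE, and SE cover the spread between animals. Other settings tried were size factors in place of TMM, no low-count filter, run as a covariate, intake in place of preference, each sex alone, and omission of extreme animals and of libraries with little Slc17a7.

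The 9 genes and the 18 lists were chosen with earlier results of these data known. Named besides the members are the 10 genes with the highest and the 5 with the lowest r with Slc17a7, the 5 with the highest r with Slc17a6 (mean log2 CPM of at least 1), and up to 4 genes per list of the highest mean level, with any others named after their values were seen. A few genes that meet this rule are not reported here.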

Additional observations from a re-analysis of the deposited data

How the results depend on the processing

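No paired analysis was possible because replicate numbers only follow the order of listing and pair no animals. In the 11 fits on preference and sex, 0 of the 9 genes passed in each alternative run. On Slc17a7, 7 of 8 members passed, and 8 with DESeq2 size factors, in males alone, without the 2 libraries of extreme Slc17a7 and without those with little Slc17a7, with Slc17a6 as the eighth. On Slc17a6, 2 of 8 passed, with 0 in females alone, and 3 in males alone and without the libraries with little Slc17a7. On Neurod6 beside Slc17a7 they were 3 of 7, with 1 in females alone and 2 in males alone. The median r of the 36 pairs was 0.72, with 0.655 without the 2 libraries of extreme Slc17a7 and 0.42 without the libraries with little Slc17a7. The causes were not tested.

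None of the slopes that turned sign passed. They are given here for mean preference, for week 1 and week 13 in all animals, for sex, for the difference of slope between the sexes and for the 4 slopes of Nrn1 and Neurod6 reported in 1 sex. With limma-voom Rspo2 had 0.19 for mean preference in all animals, 0.40 in females, 0.11 for week 1 and 0.12 for week 13; Slc17a6 had 0.045 for week 1 and 0.0019 for week 13, and Tbr1 -0.033 for mean preference in males. With run as a covariate Slc17a6 had -0.078 (mean, females) and 0.075 (week 13), Rspo2 0.22 (mean, females) and Nrgn -0.053 (week 1). Without the libraries with little Slc17a7, Tbr1 had slopes on mean preference of -0.15 in all animals, -0.18 in females and -0.11 in males. In the same setting Slc17a6 had -0.034 (females), Neurod2 -0.0078 and Emx1 -0.029 (males), and Nrgn -0.024 (week 1). With intake in place of preference Slc17a6 had -0.26 (mean, females) and Rspo2 0.047 (week 1). Without the 2 animals of extreme preference Rspo2 had 0.094 for week 1 and Slc17a6 0.027 for week 13, and without Male replicate 39 Rspo2 had 0.021 for week 1. For the difference of slope (female minus male), the values without the 2 animals of extreme preference were -0.11 for Slc17a7, -0.19 for Neurod6, -0.23 for Tbr1, -0.0029 for Emx1 and -0.033 for Nrn1, and that of Tbr1 was -0.073 without the libraries with little Slc17a7. For sex (female minus male), the differences without those libraries were 0.046 for Neurod2, 0.035 for Neurod6, 0.054 for Rspo2 and 0.076 for Nrn1. With limma-voom they were -0.027 for Tbr1 and -0.087 for Emx1, and with run as a covariate 0.0068 for Neurod6. Neurod6 in males for week 13 had 0.23 with limma-voom and 0.046 with intake. The other 490 alternative values of these results kept their sign and did not pass. Of 264 alternative values of the remaining week 1 and week 13 slopes in 1 sex, 18 turned sign and 0 passed.

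The share of all genes that passed moved more. Without the low-count filter it was 0.172% for mean preference in all animals, 0.0778% in females and 0.0547% in males, where 0% passed with the filter. In the same setting it was 0.224%, 0.0338% and 0.174% for week 1 (all animals, females, males), 0.23%, 0.308% and 0.106% for week 13, 0.0681% for the difference of slope between the sexes and 0.24% for sex. With intake in place of preference it was 0.049% in all animals and 1.26% in females for the mean, and 0.411%, 3.5% and 0.0061% in all animals, females and males for week 13. DESeq2 called 0.0123% for the mean in males, 0.0184% for week 1 in males, 1.26% in females and 0.0123% in males for week 13 and 0.0061% for the difference of slope. With limma-voom 0% passed for week 1 in all animals and in males and for week 13 in females. With run as a covariate 0.0123% passed for week 1 in males, 0.147% for week 13 in females and 0.0061% for the difference of slope. For week 1, in all animals and in males, 0% passed without Male replicate 39 and without the 2 extreme animals, and for week 13 in males 0.0061% without its 2. Without the libraries with little Slc17a7, 0.0061% passed for mean preference and 0% for week 13 in females. On Slc17a6 20.5% passed, with 4.17% in females alone and 9.71% in males alone. On Neurod6 beside Slc17a7 15.8% passed, with 9.82% with run as a covariate, 3.13% in females alone and 5.62% in males alone.

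Depth limits the lowest libraries: Emx1 rests on 6 counts in Female replicate 19. Family and lane could not enter a fit.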
